A study of Homo sapiens with 4 samples.

Results

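The genes described here are the 4 inhibitors of DNA binding (ID1, ID2, ID3 and ID4) and 6 genes that carry or restrain bone morphogenetic protein (BMP) signalling (SMAD6, SMAD7, BAMBI, BMP4, BMPR2 and NOG). All 10 were found among the 59384 gene names of the count table. They were selected by name with the counts of these same libraries already known, so their differences between groups are given as a description and their counts of calls are read as no evidence. RNA was sequenced from Daoy, an established human medulloblastoma line described by the labels as tumour cells. Cells with the genotype label FABP4 knockdown were infected with an shFABP4 virus against the fatty acid binding protein FABP4, and the control cells, labelled WT, with the PLKO virus. There were 2 libraries of each kind, which the labels number 1 and 2. The labels give neither the hairpin sequence nor the time after infection, and no clone is named. Whether the 2 libraries of a kind stem from different cultures is not stated, and the spread behind each p-value may therefore be technical.

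BMP ligands such as BMP4 bind pairs of type I and type II receptors, BMPR2 being a type II receptor. The receptors phosphorylate SMAD1, SMAD5 and SMAD9, which enter the nucleus with SMAD4 and switch on target genes, the ID genes among the best known. ID proteins have a helix-loop-helix but no DNA-binding region, so they hold E proteins such as TCF3, TCF4 and TCF12 away from DNA and thereby restrain differentiation. The same signal raises its own brakes. SMAD6 and SMAD7 block receptor and SMAD activity inside the cell, BAMBI is a receptor-like decoy without a kinase, and NOG (noggin) traps the ligand outside. In the developing cerebellum BMP signals restrain the growth of granule neuron precursors, the cells from which Hedgehog-type medulloblastoma arises.

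The proximal promoters of ID1, ID2 and ID3 are shown because these 3 genes took opposite positions in the comparison below. Each run holds the 250 bases before the RefSeq start (GRCh38.p14), written 5′ to 3′ on the gene's own strand, at chr20:31605039-31605288 (plus strand) for ID1, chr2:8681806-8682055 (plus) for ID2 and chr1:23559502-23559751 (minus) for ID3. Capitals mark GTCT or its reverse complement AGAC, the core letters of a SMAD box.
ID1: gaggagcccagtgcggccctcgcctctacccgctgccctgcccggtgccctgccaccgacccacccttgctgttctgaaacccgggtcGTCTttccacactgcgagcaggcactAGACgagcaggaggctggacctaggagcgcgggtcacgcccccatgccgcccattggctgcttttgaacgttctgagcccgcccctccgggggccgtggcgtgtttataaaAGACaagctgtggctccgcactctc
ID2: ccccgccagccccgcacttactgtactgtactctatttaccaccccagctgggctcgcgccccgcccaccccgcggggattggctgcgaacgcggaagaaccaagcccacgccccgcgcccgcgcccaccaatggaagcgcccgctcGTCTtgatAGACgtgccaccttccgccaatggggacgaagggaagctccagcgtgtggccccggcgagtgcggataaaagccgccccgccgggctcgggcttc
ID3: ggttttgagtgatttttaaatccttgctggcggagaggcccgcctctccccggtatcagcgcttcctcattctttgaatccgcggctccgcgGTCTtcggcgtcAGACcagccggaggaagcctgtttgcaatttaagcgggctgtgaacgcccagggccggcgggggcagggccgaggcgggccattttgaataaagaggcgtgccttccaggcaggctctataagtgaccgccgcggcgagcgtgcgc

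The ID1 window held 3 such matches and the ID2 and ID3 windows 2 each. Over 35116 windows of the same length in the table, 77.5% held at least 1 match and the mean was 1.55, so the motif is common. The longer motif GGCGCC, a palindrome bound by BMP-type SMADs, was present in 16.4% of windows, in none of the ID windows, 3 times in that of BAMBI and once each in that of BMPR2 and in 1 of the 3 windows of BMP4. Matches were counted on both strands, and matches of the 2 motifs cannot overlap. The table held a window for 9 of the 10 genes, NOG being the one without an entry.

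The libraries differed in depth and makeup. The shFABP4 libraries held 2539862 (library 1) and 20431660 (library 2) counted fragments, and the PLKO libraries 8988961 and 13839885. A fragment was present in 51762 gene names in shFABP4 1 but in 22350 to 25560 in the other 3 libraries. From 2655 coding genes that held no fragment elsewhere, the background of shFABP4 1 was estimated at 3.81 to 18.9 fragments per kb of exon, rising with GC content, or 54.6% of that library. FABP4 itself had 14 and 0 fragments in shFABP4 libraries 1 and 2, against 1 and 6 in PLKO, with 5.21 expected from background in shFABP4 1. The library labelled shFABP4 1 thus lay above both controls, and these counts do not check its label. The 9 neural and medulloblastoma markers summed to 1467 and 6443 counts per 1e6 fragments of the library total (CPM) in shFABP4 against 1547 and 1564 in PLKO. VIM (vimentin) had 2830 and 131016 fragments in shFABP4 against 13811 and 21475 in PLKO. At 1114 and 6412 CPM against 1536 and 1552, VIM made up most of each sum. NES, SOX9, GLI2 and PAX6 had PLKO means of 4.44, 4.72, 1.78 and 0.528 CPM. SOX2, ATOH1, ZIC1 and OTX2 had at most 3 fragments outside shFABP4 1. The epithelial keratins KRT8 and KRT18 were abundant in all 4 libraries. The 4 epithelial markers summed to 608 and 3424 CPM in shFABP4 against 1956 and 1989 in PLKO, mostly from these keratins. The other epithelial markers were low, EPCAM with 34 and 15 fragments in shFABP4 against 2 and 10 in PLKO. CDH1 had 83 and 0 against 0 and 2. The 4 adipocyte markers summed to 77.6 and 1.17 CPM against 0.779 and 1.66, the 5 haematopoietic ones to 122 and 15.6 against 20.6 and 17.6 and the 3 hepatocyte ones to 22.0 and 0.392 against 1.67 and 1.37. The part of other cell types in the results was not tested. In such bulk RNA fewer cells of a type and less RNA per cell cannot be told apart.

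Daoy cells carrying PLKO expressed ID1 and ID3 strongly and the other 8 genes weakly. On the scale of CPM per kb of exon, ID1 was at 990 and 978 and ID3 at 890 and 870 in the PLKO libraries. BAMBI followed at 4.16 and 5.37 and ID2 at 3.22 and 2.58. NOG had 0.640 and 1.25, SMAD6 0.663 and 0.709, BMPR2 0.605 and 0.612, SMAD7 0.536 and 0.549 and BMP4 0.180 and 0.303. ID4 had no fragment, which allows up to 0.334 and 0.217 CPM (3 counts per library). The ID1, ID3, BAMBI and ID2 values did not overlap one another, whereas the NOG values enclosed those of SMAD6 and the ranges of NOG, SMAD6 and BMPR2 lay close together. The E proteins that ID proteins bind were less abundant per kb than ID1 and ID3, at a PLKO mean of 5.63 for TCF3, 0.652 for TCF12 and 0.173 for TCF4.

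**Figure D1:**
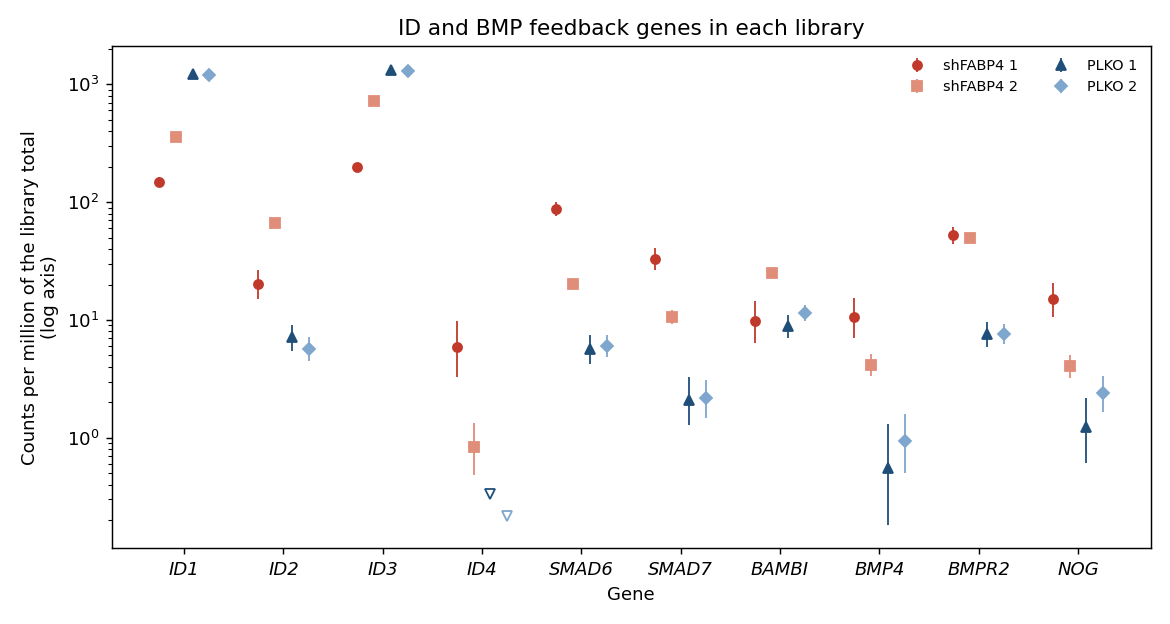
Level of each gene in each library in CPM, on a log axis; bars are exact 95% Poisson intervals (counting error only) and open triangles mark the limit that a count of 0 allows. ID1 and ID3 sit above 1000 in both PLKO libraries and no higher than 720 in the shFABP4 libraries, while ID2 sits at 20.1 and 66.5 in shFABP4 and at 7.12 and 5.71 in PLKO.

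ID1 (chromosome 20, 31605283 to 31606515, plus strand, GRCh38) was lower in both shFABP4 libraries. It had 377 and 7288 fragments in shFABP4 libraries 1 and 2, against 10978 and 16697 in PLKO, or 148 and 357 CPM against 1221 and 1206. The groups did not overlap, and both shFABP4 values lay far under either PLKO value. When scaled by the total of the tested genes, 13.0% of genes tested likewise lay below both PLKO libraries in both shFABP4 libraries. After scaling by the trimmed mean of M-values (TMM) over all tested genes, ID1 averaged 255 ± 221 normalised CPM in shFABP4 and 1659 ± 7.11 in PLKO (SD, n = 2 each), with a log2 fold change of -2.70 (SE 1.18). The wide SD in shFABP4 reflects values of 98.2 in library 1 and 411 in library 2, both under the PLKO range. The value was -5.28 with shFABP4 2 left out and -2.01 with shFABP4 1 left out. Fits with a library left out repeated the low-count filter and the TMM scaling. They tested 27830 genes without shFABP4 2 and 15301 without shFABP4 1, against 14735 with all 4 libraries.

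ID3 (chromosome 1, 23557926 to 23559501, minus strand), a close relative that binds the same partners, followed ID1 with a smaller difference. It had 503 and 14720 fragments in shFABP4 against 11970 and 18005 in PLKO, or 198 and 720 CPM against 1332 and 1301. Both shFABP4 values were below both PLKO values. The normalised mean was 481 ± 495 CPM in shFABP4 and 1799 ± 21.8 in PLKO (SD, n = 2 each), and the log2 fold change was -1.90 (SE 1.29). It was -4.98 without shFABP4 2 and -1.11 without shFABP4 1.

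ID2 (chromosome 2, 8678845 to 8684461, plus strand) lay on the other side. It had 51 and 1358 fragments in shFABP4 against 64 and 79 in PLKO, or 20.1 and 66.5 CPM against 7.12 and 5.71. In shFABP4 2 its CPM was 10.4 times the PLKO mean, and in shFABP4 1, where background was expected to give 23.6 fragments, it was above both PLKO values as well. The normalised mean was 44.96 ± 44.8 CPM in shFABP4 and 8.76 ± 1.33 in PLKO (SD, n = 2 each), with a log2 fold change of 2.36 (SE 0.97). With shFABP4 2 left out the fitted value was -0.58, in a fit that repeated the low-count filter and TMM scaling over 27830 genes. Under the TMM scaling of all 4 libraries, ID2 in shFABP4 1 was at a log2 of 0.60 over the PLKO mean. Its side of PLKO in shFABP4 1 thus depended on how the libraries were scaled. Counting ignored strand, and 6.55% of the ID2 exon bases overlap the antisense gene ID2-AS1, which had 126 and 133 fragments in shFABP4 against 31 and 49 in PLKO.

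ID4 (chromosome 6, 19837370 to 19842197, plus strand), the ID gene with roles in neural precursors, was hardly detected. It had 15 and 17 fragments in shFABP4 and none in either PLKO library. It failed the low-count filter. The 15 fragments of shFABP4 1 were fewer than the 29.9 expected from background, so only the 17 of shFABP4 2, or 0.832 CPM (95% Poisson interval 0.485 to 1.33), stand outside that estimate.

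Background bears unequally on these genes. In shFABP4 1 the count was 18.9 times the expected background for ID1 and 20.7 times for ID3. For the other 8 genes it was 0.501 to 2.79 times. Among 1884 genes with no fragment elsewhere and at least 10 expected, the same ratio ran from 0 (5th percentile) through 0.743 (median) to 2.88 (95th percentile), a range that held all 8. For these 8 genes the value of shFABP4 1 thus lay within the range of genes that held background only, and shFABP4 2 is the library that carries their comparison.

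**Figure D2:**
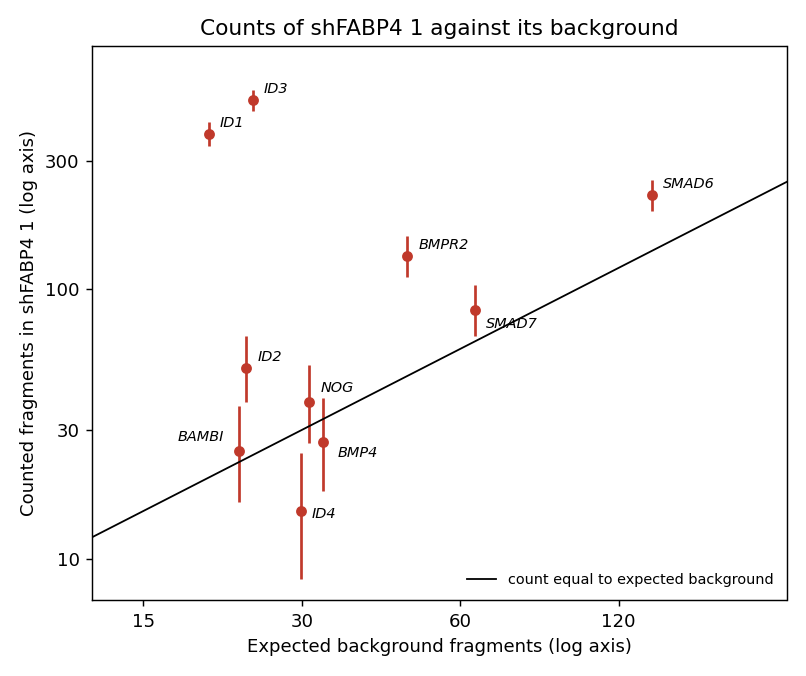
Fragments counted in shFABP4 1 (bars, exact 95% Poisson interval) against the background expected from exon length and GC content, both on log axes, with a line where they are equal. ID1 (377 against 19.996) and ID3 (503 against 24.3) lie far above the line, and the intervals of BAMBI, BMP4 and NOG cross it.

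Ratios of fragments within a library do not depend on any scaling between libraries. ID2 over ID1 was 0.135 (95% interval 0.0989 to 0.182) in shFABP4 1 and 0.186 (0.176 to 0.197) in shFABP4 2, against 0.00583 (0.00449 to 0.00745) and 0.00473 (0.00374 to 0.00590) in PLKO. The intervals, exact binomial and covering counting error only, did not overlap between the groups. With expected background subtracted from both genes the ratio in shFABP4 1 was 0.0769, still above both PLKO values. ID1 over ID3 was 0.750 (0.654 to 0.858) and 0.495 (0.481 to 0.509) in shFABP4 libraries 1 and 2, against 0.917 (0.894 to 0.941) and 0.927 (0.908 to 0.947) in PLKO. The PLKO pair agreed within its intervals, both shFABP4 ratios were lower, and the shFABP4 libraries differed from each other. The ID2 count of shFABP4 1 lay within the range of genes that held background only, so the ratio of ID2 to ID1 rests on shFABP4 2, whereas ID1 and ID3 stood far above background in both shFABP4 libraries. An exact permutation test of 2 libraries against 2 cannot go below p = 0.333 (two-sided), so none is given.

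**Figure D3:**
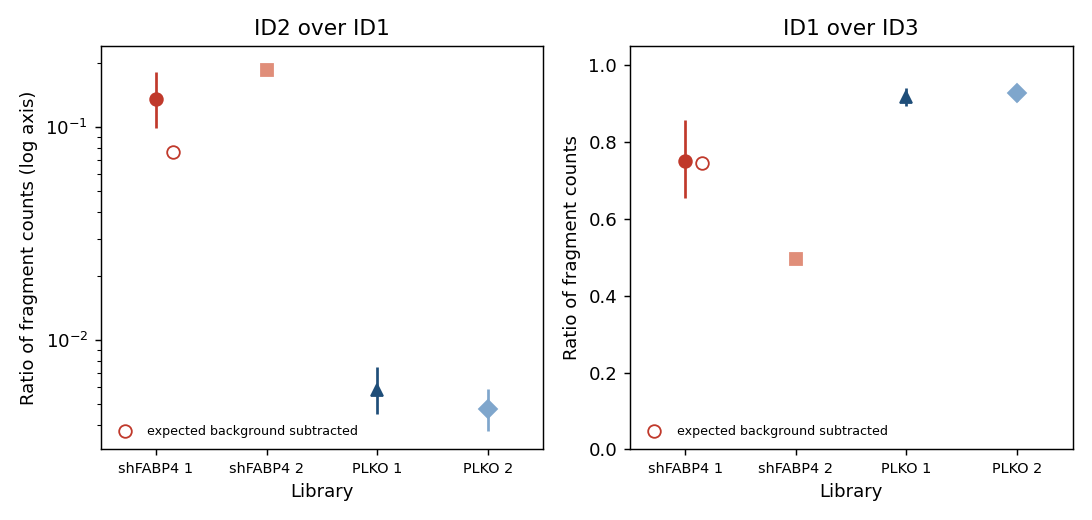
Ratio of ID2 to ID1 fragments (left, log axis) and of ID1 to ID3 fragments (right, linear axis) in each library, with exact 95% binomial intervals; open circles show shFABP4 1 after subtraction of expected background. The left ratio is 0.135 and 0.186 in shFABP4 against 0.00583 and 0.00473 in PLKO, and the right one 0.750 and 0.495 against 0.917 and 0.927.

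The inhibitory SMADs were higher in both shFABP4 libraries, although library 1 adds little for them. SMAD6 (chromosome 15, 66702236 to 66782849, plus strand), which preferentially blocks BMP receptors, had 224 and 411 fragments in shFABP4 against 51 and 84 in PLKO, or 88.2 and 20.1 CPM against 5.67 and 6.07. SMAD7 (chromosome 18, 48919853 to 48950965, minus strand), which blocks both BMP and TGF-beta receptors, had 84 and 216 against 19 and 30, or 33.1 and 10.6 CPM against 2.11 and 2.17. Neither gene overlapped between the groups. When scaled by the total of the tested genes, 48.0% of genes tested likewise lay above both PLKO libraries in both shFABP4 libraries. In shFABP4 1 the expected background was 139 fragments for SMAD6 and 64.0 for SMAD7. Log2 fold changes over the 4 libraries were 2.34 (SE 0.65) for SMAD6 and 2.53 (SE 0.62) for SMAD7. For SMAD6 the value was 1.52 without shFABP4 1, 1.65 without shFABP4 2, 1.75 without PLKO 1 and 1.86 without PLKO 2. For SMAD7, the lowest was 1.69, without shFABP4 2. These fits tested 15301 to 28425 genes, so both the libraries and the genes tested changed. With all 4 libraries and no filter, SMAD6 was at 1.73 and SMAD7 at 2.01.

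BAMBI (chromosome 10, 28677510 to 28682932, plus strand), the decoy receptor, was split. It had 25 and 508 fragments in shFABP4 against 80 and 159 in PLKO, or 9.84 and 24.9 CPM against 8.90 and 11.5. In plain CPM library 1 lay between the controls, with 22.8 fragments expected from background, and library 2 lay above them. The log2 fold change was 0.35 (SE 0.83), with -2.32 when shFABP4 2 was left out and 1.02 when shFABP4 1 was left out.

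The ligand BMP4 (chromosome 14, 53949736 to 53958761, minus strand) had 27 and 85 fragments in shFABP4 against 5 and 13 in PLKO, or 10.6 and 4.16 CPM against 0.556 and 0.939. Background alone was expected to give 33.0 fragments in shFABP4 1, more than were counted, and 16.3% of BMP4 exon bases are shared with the overlapping gene RP11-242G5.1, which had 6 and 0 fragments in shFABP4 and 0 in both PLKO libraries. Its receptor BMPR2 (chromosome 2, 202376327 to 202567751, plus strand) had 133 and 1019 fragments against 68 and 106, or 52.4 and 49.9 CPM against 7.56 and 7.66, with 47.6 expected from background in shFABP4 1. BMPR2 had the closest pair of shFABP4 values in plain CPM among the 10 genes, and both lay above both PLKO values. Under TMM the BMPR2 pair was 34.7 and 57.5 normalised CPM, so its closeness depends on the scale. NOG (chromosome 17, 56593699 to 56595611, plus strand), the secreted antagonist, had 38 and 83 fragments against 11 and 33, or 14.96 and 4.06 CPM against 1.22 and 2.38, with 31.0 expected in shFABP4 1. Log2 fold changes were 2.50 (SE 0.75) for BMP4, 2.15 (SE 0.51) for BMPR2 and 1.54 (SE 0.79) for NOG. With shFABP4 2 left out the BMPR2 value was 0.53 and that of BMP4 was 1.51, and BMP4 was at 1.77 without PLKO 1. The NOG value was 0.85 without shFABP4 1, 0.73 without shFABP4 2 and 0.65 without PLKO 1. The genes tested changed in these fits as well. With all 4 libraries and no filter, BMP4 was at 2.04, BMPR2 at 1.90 and NOG at 0.98.

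Counted over TMM-normalised values, 7 of the 10 genes lay above both PLKO libraries in both shFABP4 libraries (ID2, ID4, SMAD6, SMAD7, BMP4, BMPR2 and NOG), against 28.5% of the 14735 genes tested. ID4 failed the filter and is not among those 14735. In shFABP4 1 the ID4 and BMP4 counts were below expected background (15 against 29.9 and 27 against 33.0). ID1 and ID3 lay below, against 26.1% of genes tested. BAMBI lay below both PLKO libraries in shFABP4 1 and above both in shFABP4 2, at 6.51 and 28.7 against 12.1 and 15.7. The 9 genes tested had a median log2 fold change of 2.15, beside 0.34 over all genes tested. In edgeR's quasi-likelihood test over the 4 libraries 0 of the 9 passed an adjusted p of 0.05, and 0% of all genes did (1818 genes had an unadjusted p under 0.05). DESeq2 called 719 genes (4.88%), with ID1 the one called among the 10. With shFABP4 1 left out all 10 genes were called, 8 higher and 2 lower, but so were 66.9% of 15301 genes, since the spread then came from the PLKO pair alone and shFABP4 2 was assumed to vary as little. In that fit the ID2 value of 3.16 was exceeded by 1.59% of genes and the BMPR2 value of 2.46 by 3.15%, whereas 6.48% of genes lay below the ID1 value of -2.01 and 17.5% below the ID3 value of -1.11. The SMAD7 value of 2.05 was exceeded by 5.35% of genes, that of SMAD6 (1.52) by 10.6%, that of BAMBI (1.02) by 20.1% and that of NOG (0.85) by 24.2%.

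Scaling by genes whose RNA stands well above the background of shFABP4 1 (high-signal genes) drew the 2 shFABP4 libraries together for ID1, ID2 and ID3. This scaling used 1047 coding genes with expected RNA of at least 5 times the background. On it ID2 was at 72.1 and 71.7 normalised CPM in shFABP4 against 7.10 and 5.72 in PLKO. ID3 was at 711 and 778 against 1327 and 1304, and ID1 at 533 and 385 against 1217 and 1209. These 3 genes thus kept their side of PLKO. ID1 and ID3 are among the 1047 genes that set this scaling, so their closer agreement than under TMM is no independent support. For ID2, 46.2% of the shFABP4 1 count was expected background, so its agreement between the shFABP4 libraries is no support either. The same scaling spread the libraries apart for SMAD6, at 317 and 21.7 against 5.66 and 6.08, for SMAD7, at 119 and 11.4 against 2.11 and 2.17, and for ID4, at 21.2 and 0.898 against 0 in both PLKO libraries. With expected background also subtracted, ID2 was at 46.2 and 71.1, ID1 at 601 and 382, ID3 at 806 and 771, BMPR2 at 144 and 53.3, SMAD7 at 33.7 and 11.3 and SMAD6 at 144 and 21.5 in shFABP4, each on the same side of PLKO as before. NOG also stayed above, at 11.7 and 4.35 against 1.22 and 2.39, while BMP4 and ID4 were at 0 in shFABP4 1 and BAMBI at 3.75. That left 5 genes above, against 40.7% of all genes tested, and 2 below, against 14.4%. Without subtraction this scaling put 8 of the 10 genes above, the untested ID4 included, as it did 59% of all genes tested. It put 2 below, against 4.8%. It moved the median log2 fold change of all genes to 2.33, beside 0.34 under TMM, and BAMBI at 1.60 was then under that median. A test restricted to the 1047 genes, chosen after the data had been seen and with shFABP4 2 among the libraries that defined the set, held ID1 and ID3 only. It called both lower (-1.41, SE 0.22, and -0.82, SE 0.15), beside 35.6% of its genes called in either direction.

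**Figure D4:**
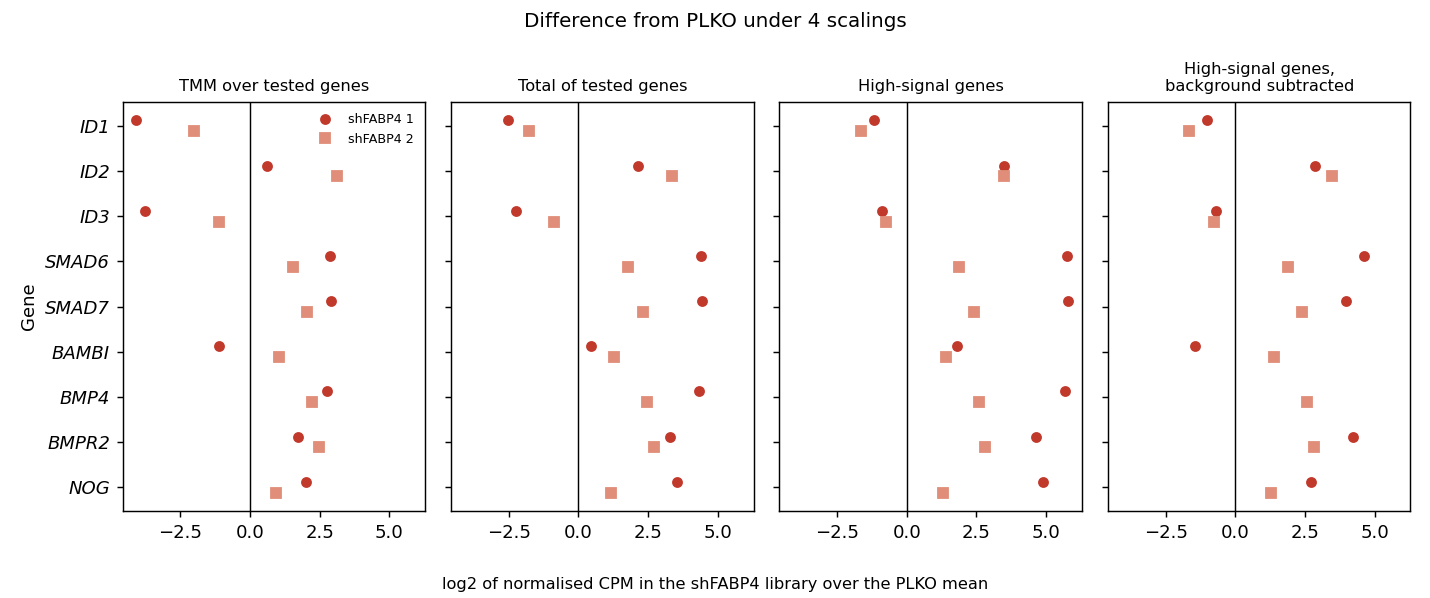
Log2 of normalised CPM in each shFABP4 library over the PLKO mean for 9 genes (ID4, at 0 in PLKO, is left out) under 4 scalings, with 0 as the line of no difference; BMP4 has no point for shFABP4 1 in the last panel, where subtraction left 0. ID1 and ID3 lie left of the line and ID2 right of it in all 4 panels, and BAMBI in shFABP4 1 changes side.

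GC content moved with the comparison as well. In shFABP4 2 against PLKO, coding genes under 40% GC had a median log2 CPM ratio of 0.72 and those of 60% and above -0.26. ID1 and ID3 fall in the bin from 55% to 60%, where the median was -0.11, while their own values were -1.77 and -0.87. SMAD6, SMAD7 and NOG share that bin at 1.78, 2.30 and 1.17. ID2, BAMBI and BMP4 fall between 50% and 55% (median 0.18) at 3.37, 1.29 and 2.48, and BMPR2, the most AT-rich of the 10, under 40% at 2.71. The part of GC content in these values was not tested beyond this.

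The other genes of the pathway were taken from a list of 62 genes by role, 44 of which passed the low-count filter. In the test over 4 libraries 0 of the 44 passed in either direction (9 had an unadjusted p under 0.05), beside 0% of all genes. Both shFABP4 libraries lay above both PLKO libraries for 19 of the 44 and below for 5, against 28.5% and 26.1% of all genes tested. In shFABP4 1 the count over background of 53 of the 62 lay within the range of the background genes. The median log2 fold change of the 44 was 1.04, beside 0.34 over all genes.

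Ligands and receptors were mixed under TMM. BMP7, BMP8B, BMPR1A, ACVR1, NEO1 and ENG lay above PLKO in both shFABP4 libraries, RGMB below (above under high-signal scaling), and BMP6, BMPR1B, ACVR2A and ACVR2B on neither side (ACVR2A above under high-signal scaling). BMP7, the most abundant other BMP ligand, had 174 and 994 fragments in shFABP4 against 243 and 389 in PLKO, BMP8B 87 and 115 against 6 and 12, and BMP6 36 and 27 against 7 and 30. The type I receptor BMPR1A had 115 and 308 against 26 and 27, and ACVR1 63 and 300 against 38 and 43. BMPR1B, a further type I receptor, had 26 and 0 against 4 and 9. Of the other type II receptors, ACVR2A had 8 and 108 against 22 and 37 and ACVR2B 146 and 74 against 28 and 72. Among co-receptors RGMB had 35 and 234 against 100 and 166, NEO1 134 and 543 against 124 and 224 and ENG 187 and 14 against 1 and 4. Background in shFABP4 1 was expected to give 88.0 fragments for BMP7, 78.3 for BMP8B, 49.6 for ACVR1, 62.8 for NEO1 and 72.4 for ENG. ENG and BMPR1B failed the low-count filter. For BMPR1A, with 48.0 fragments expected from background in shFABP4 1, the edgeR estimate was 2.84 on the log2 scale, with SE 0.61 and adjusted p = 0.391.

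Over the 4 libraries, the SMADs that carry the BMP signal had smaller fold changes than the inhibitory ones. SMAD5 had 95 and 358 fragments in shFABP4 against 171 and 244 in PLKO (log2 fold change -0.16, SE 0.44, adjusted p = 0.859, edgeR). SMAD4 had 62 and 361 against 75 and 101 (0.78, SE 0.48) and SMAD9 45 and 169 against 20 and 43 (1.54, SE 0.60). Without shFABP4 1 the values were -0.30 for SMAD5, 0.94 for SMAD4 and 1.35 for SMAD9, beside 1.52 for SMAD6 and 2.05 for SMAD7. SMAD9 and SMAD6 were then close. The difference between SMAD6 or SMAD7 and the SMADs that carry the signal was not tested.

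Secreted antagonists were split. FSTL3, a follistatin-like protein, had 172 and 2138 fragments in shFABP4 against 2277 and 3123 in PLKO (log2 fold change -1.98, SE 0.80, adjusted p = 0.392, edgeR). NBL1, a noggin-like antagonist of the DAN family, had 93 and 1572 against 1893 and 2958 (-2.36, SE 0.88, adjusted p = 0.391), and FSTL1 199 and 4771 against 398 and 589 (1.44, SE 0.94, adjusted p = 0.458). Under TMM FSTL3 and NBL1 were below both PLKO libraries (FSTL3 on neither side under high-signal scaling), and FSTL1 was below them in shFABP4 1 and above them in shFABP4 2, though above them in both under high-signal scaling.

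Inside the cell, FKBP1A, which holds type I receptors inactive, had 131 and 2885 fragments in shFABP4 against 3790 and 5701 in PLKO (-2.53, SE 1.07, adjusted p = 0.392, edgeR). The ubiquitin ligase SMURF2 had 113 and 1391 against 333 and 496, and the SMAD corepressor SKI 185 and 244 against 72 and 128. Among other BMP targets MSX1, a homeobox factor, had 56 and 1690 against 134 and 222, ATOH8 290 and 1024 against 370 and 646 and MSX2 45 and 32 against 28 and 43. None of these 3 lay on one side of PLKO in both shFABP4 libraries under TMM, whereas MSX1 and ATOH8 lay above under high-signal scaling.

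The E proteins had 265 and 969 fragments (TCF3), 144 and 457 (TCF4) and 86 and 820 (TCF12) in shFABP4, against 316 and 462, 44 and 72 and 60 and 78 in PLKO. All 3 lay above PLKO under TMM in both shFABP4 libraries, with log2 fold changes of 0.40, 2.19 and 2.03 and adjusted p of 0.637, 0.391 and 0.391 (edgeR). In shFABP4 1 background was expected to give 115, 111 and 47.6 of these fragments.

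On the TGF-beta arm, the ligand TGFB1 had 175 and 7060 fragments in shFABP4 against 1512 and 2328 in PLKO, and CCN2, a matricellular target, 61 and 1908 against 333 and 492. Both genes lay below PLKO in shFABP4 1 and above it in shFABP4 2 under TMM (above in both under high-signal scaling). Outside the test over all genes, DESeq2 called BMP8B higher, and among the 1047 high-signal genes FKBP1A (-1.31, SE 0.16) was called lower. Of the 87 BMP8B fragments in shFABP4 1, 78.3 were expected from background.

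The genes with the most similar profile over the 4 libraries were sought among 8032 coding genes averaging at least 100 counts, as the smallest distance between TMM-normalised log2 profiles centred on PLKO. For ID1 they were RABAC1 (distance 0.0853), POLR2J (0.0971) and DENR (0.0982). RABAC1 had 235 and 4328 fragments in shFABP4 against 6982 and 10365 in PLKO. For SMAD7 they were SORCS2 (0.144), PRSS27 (0.161) and SLC4A2 (0.167). SORCS2 had 263 and 724 against 62 and 110, with 119 expected from background in shFABP4 1. The profiles share the same 4 libraries, and the background of shFABP4 1 enters all of them.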

How the data were processed

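Libraries were made from bead-captured mRNA, and Tn5 was used for fragmentation, per the labels' protocols. The submitters' processing notes name FastQC, HISAT, StringTie and GRCh38, and no version is given in the sources used here. The authors' deposited values are raw counts of read pairs per gene name over GENCODE 38 exons. They came from featureCounts 2.0.0, with chimeric pairs excluded and no strand option, per the file headers. Coordinates and exon lengths are those of the deposited table.

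A gene whose row was broken over 7 lines was left out. Gene type and GC content came from GENCODE 29, with a GC value for 91.4% of genes averaging 20 counts or more, and promoters from RefSeq. Chi-square per degree of freedom was 289 between the shFABP4 libraries and 2.06 between the PLKO libraries, both above sampling noise. The model was edgeR 4.0.16 (R 4.3.3) with TMM, filterByExpr and a robust quasi-likelihood test. All tested genes entered the Benjamini-Hochberg adjustment, and the procedure was tested on simulated data. Alternatives were DESeq2 1.42.0, limma 3.58.1 (voom), other scalings and filters, a replicate block and each library left out. Filter and scaling were repeated for each library left out, so the genes tested changed too. Intervals cover counting error only.

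The 10 genes, the lists and the tests were chosen with earlier results of these data known. The text names all 10 genes, the 3 of each pathway role with the highest PLKO counts per kb, and the 3 profiles nearest to ID1 and to SMAD7. The values of 1 named gene of the pathway list are not reported here.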

Additional observations from a re-analysis of the deposited data

How the results depend on the processing

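The number of genes called over all genes tested was 0 with TMM and with 5 other choices (RLE, upper-quartile, tested-gene total and high-signal scaling, limma-voom) and with a mean of at least 100 counts. Libraries numbered 1 did not deviate together between the groups (correlation 0.0106 over 14735 genes). With 54.6% of shFABP4 1 estimated as background, this correlation cannot exclude pairing. The main model did not take the numbers as pairs, and the replicate block was an alternative. The count was 28 with the replicate block, 719 with DESeq2, 69 without the filter, 373 among high-signal genes alone (an alternative chosen after seeing the data) and 0 to 23895 with each library left out. Of the pathway list, 2 genes were called by DESeq2, 2 among high-signal genes and 0 to 46 with each library left out. With a library left out, 2 to 4 of the 10 genes lay below PLKO and 6 to 8 above. The 4 were reached without shFABP4 2, where 63.6% of all genes tested lay below. Over the libraries left out, 32.5% to 63.6% of all genes tested lay below and 24.8% to 47.4% above. Over the other scalings 5 to 8 of the 10 lay above, beside 26.6% to 59.0% of all genes tested. ID4 is counted among the 10 but is not among the genes tested. Under these scalings 2 of the 10 lay below, beside 4.8% to 28.1%. Of the 44 pathway genes, 32 lay above and 3 below under high-signal scaling, beside 59.0% and 4.8% of all genes tested. Under TMM 19 lay above and 5 below, beside 28.5% and 26.1%. Of 116 alternative fold changes 114 kept their direction. The exceptions were ID2 and BAMBI without shFABP4 2, with ranges of -0.58 to 3.16 and -2.32 to 1.02 over the libraries left out, and the cause was not tested. Most of the 116 refitted the same 4 libraries, so a kept direction is no independent support. BAMBI at 0.004 with the replicate block was counted as kept. No share over all genes stands beside this count. ID4 failed the filter with all 4 libraries. It was fitted with a library left out or with no filter, but both PLKO libraries are at 0 and the fitted value depends on the prior count, so none is given. The number of libraries and the background of shFABP4 1 limit these values. For ID1 and ID3 the background acts through the scaling rather than their own counts. In shFABP4 1 the log2 over the PLKO mean was -4.08 under TMM and -1.19 under high-signal scaling for ID1. For ID3 it was -3.78 and -0.89.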
